A study of Mus musculus with 6 samples.

Results

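The genes of MHC class II antigen presentation were compared between dental pulp of wild-type (WT) and *Mmp13*-/- mice. The members were the 8 genes *H2-Aa*, *H2-Ab1*, *H2-Eb1*, *H2-DMa*, *H2-DMb1*, *H2-DMb2*, *Cd74* and *Ciita*, taken by gene symbol from a table of 53342 genes, in which all 8 were found. All mice were C57BL/6 and 3 months of age, and the study's methods give males. The *Mmp13*-/- animals were homozygous for a global loss of MMP13, a collagenase that cuts fibrillar collagen, and the WT animals carried no altered allele. Pulp RNA was sequenced on an Illumina instrument in 3 independent biological samples per genotype, the WT ones carrying the numbers 2, 4 and 5 and the *Mmp13*-/- ones 1, 2 and 6, and single values are given in that order. Whether a sample held the pulp of more than 1 animal is not given in the sources used here, and the labels' protocol names molars for all samples (the titles only for WT) where the study's methods name incisors.

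MHC class II molecules carry peptides from taken-up proteins to the cell surface, where CD4+ T cells read them. An alpha and a beta chain pair in the endoplasmic reticulum with the invariant chain, encoded by *Cd74*, which blocks the groove until proteases cut it down and the DM molecule exchanges its last fragment for a peptide. In the dental pulp these molecules are known from dendritic cells and macrophages, and B cells carry them elsewhere in the body. The genes are switched on together by CIITA, a coactivator that does not bind DNA itself and docks on a protein complex assembled on short promoter elements, the X box (bound by the RFX complex, with CREB beside it) and the Y box (an inverted CCAAT element bound by NF-Y).

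Those elements could be read for 5 of the 8 members, which had 6 promoter windows in RefSeq (GRCm38.p6, 250 bases before to 50 bases after a start). The letters AACNGATG (X box core), GATTGG (Y box) and TGACGTCA (a CREB element) were searched on both strands, and were chosen with these windows in view. Across 32851 windows, AACNGATG was present in 2.32%, GATTGG in 16.1% and TGACGTCA in 1.79%. AACNGATG followed by GATTGG on the same strand within 40 bases occurred in 8 windows, or 0.0244%. Of these, 4 belonged to class II genes, 3 of them members (*H2-Eb1*, *H2-DMb1* and *H2-DMb2*) and the other being *H2-Eb2*. The remaining 4 belonged to *G3bp2*, *Scgb2b20*, *Gm35444* and *BC051142*. The stretches of *H2-Aa* and *H2-DMb2*, the 2 members that passed the test between genotypes, are shown with that of *H2-Eb1*, which did not, each over 110 bases with the matched letters in capitals.
H2-Aa (chr17:34287824-34287933, GRCm38.p6, minus strand): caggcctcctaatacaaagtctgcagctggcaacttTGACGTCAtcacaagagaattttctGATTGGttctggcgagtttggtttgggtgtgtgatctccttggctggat
H2-DMb2 (chr17:34145103-34145212, GRCm38.p6, plus strand): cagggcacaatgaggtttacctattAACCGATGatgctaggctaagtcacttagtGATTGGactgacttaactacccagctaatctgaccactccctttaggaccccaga
H2-Eb1 (chr17:34305753-34305862, GRCm38.p6, plus strand): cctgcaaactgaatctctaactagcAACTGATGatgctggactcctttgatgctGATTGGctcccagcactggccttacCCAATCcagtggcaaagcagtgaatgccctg

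With positions counted in bases from the start, the X letters of *H2-DMb2* began at −121 and the Y letters at −91, with 22 bases between them. In *H2-Eb1* they began at −89 and −60, with 21 bases between them, and CCAATC is the Y element read from the other strand. The *H2-Aa* window held TGACGTCA at −74, GATTGG at −49 and no AACNGATG. *H2-DMb1*, the near copy of *H2-DMb2*, had the same pair with 22 bases between, and of the 2 windows of *H2-DMa* one held a GATTGG and the other no match. A member that rose and members that did not pass the test thus shared the same pair of letters. These matches are descriptions of letters and not of binding.

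The libraries held 28442936 to 29980236 estimated counts in WT and 21561420 to 26547121 in *Mmp13*-/-. *Mmp13* checked the labels, at 818 or more normalized counts in each WT sample against 8.76, 29.8 and 63.4 in the *Mmp13*-/- samples (log2 fold change −4.96, standard error 0.46, adjusted p = 7.67e-05). Odontoblast marker *Dspp* stood at 14200 or more in every sample, whereas skeletal muscle genes were also abundant, and all 5 of those listed were lower in *Mmp13*-/-. Counts over 1452 odorant and vomeronasal receptor genes, which pulp should not express, were 0.0946 to 0.116 per kilobase of exon in WT. They were 1.50 and 1.75 for *Mmp13*-/- samples 1 and 2, and 4.80 for sample 6, which stood apart. No sequencing batch is given, so a batch and the genotype cannot be told apart.

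Of the 8 class II members, 2 were higher in *Mmp13*-/- pulp, none was lower and 6 were not called. *H2-Aa*, the alpha chain of the I-A molecule, rose 2.49-fold, and *H2-DMb2*, a beta chain of DM, rose 1.96-fold. *H2-Ab1*, the beta chain that pairs with *H2-Aa*, and *H2-Eb1*, *H2-DMa*, *H2-DMb1*, *Cd74* and *Ciita* did not pass the test. Genes were tested with edgeR's quasi-likelihood test on counts over all 6 samples, and a gene was called at an adjusted p under 0.05 (Benjamini-Hochberg over 24534 genes). With that rule 51.6% of all genes tested were called, 27.3% of them higher and 24.3% lower as shares of all genes tested, so that 2 of 8 higher is near the background. The median log2 fold change of the members was 0.06, against 0.10 for all genes. Over 2-fold, 1 of 8 members, *H2-Aa*, was called, against 30.1% of all genes in either direction and 20.4% higher. In 2 of 8 members the genotypes did not overlap, both higher in *Mmp13*-/-, against 60.9% of all genes tested, or 31.8% in that direction. In bulk tissue, fewer cells of a type and less RNA per cell cannot be told apart.

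**Figure D1:**
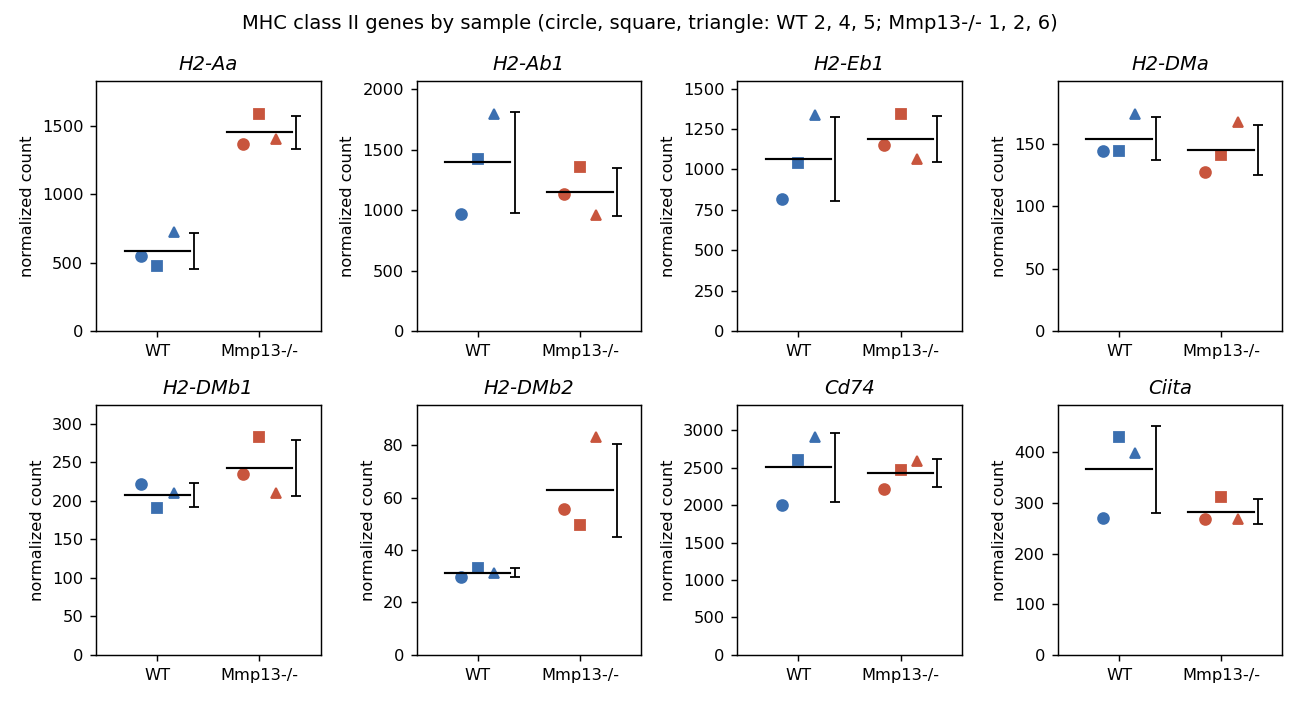
Normalized counts (y axis, from 0, one scale per panel) of the 8 class II members in WT samples 2, 4 and 5 (blue circle, square, triangle) and *Mmp13*-/- samples 1, 2 and 6 (red circle, square, triangle), with the mean as a line and the SD (n = 3) as a bar. Only in the panels of *H2-Aa* and *H2-DMb2* do all *Mmp13*-/- points lie above all WT points.

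The chains of the presenting molecules came first in the comparison. *H2-Aa* (ENSMUSG00000036594, chromosome 17, 34282744 to 34287823, minus strand, GENCODE M21 on GRCm38) had 549, 476 and 727 normalized counts in the WT samples against 1365, 1587 and 1402 in the *Mmp13*-/- samples. Every *Mmp13*-/- sample lay above every WT sample, with the highest WT value well under the lowest *Mmp13*-/- value. The WT mean was 584 ± 129 and the *Mmp13*-/- mean 1452 ± 119 (SD, n = 3 each), a log2 fold change of 1.31 (95% interval 0.93 to 1.70, edgeR adjusted p = 0.000296). It remained called with each sample left out in turn, at 1.15 to 1.43.

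*H2-Ab1* (ENSMUSG00000073421, chromosome 17, 34257689 to 34269419, plus strand) encodes the partner of that chain and lies beside it. Its normalized counts were 966, 1422 and 1797 in the WT samples and 1135, 1356 and 958 in the *Mmp13*-/- samples. The genotypes overlapped, and WT sample 2 was close to the lowest *Mmp13*-/- sample. The WT mean was 1395 ± 416 and the *Mmp13*-/- mean 1150 ± 200 (SD, n = 3 each), with a log2 fold change of −0.28 (95% interval −0.77 to 0.22, edgeR adjusted p = 0.324). Without WT sample 2 the value was −0.56 and was called lower (edgeR adjusted p = 0.0491).

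*H2-Eb1* (ENSMUSG00000060586, chromosome 17, 34305867 to 34316674, plus strand) encodes the beta chain of I-E, whose alpha chain C57BL/6 mice do not make. Its normalized counts were 819, 1040 and 1335 with WT and 1151, 1345 and 1066 with *Mmp13*-/-. The genotypes overlapped, and WT sample 2 was the lowest of the 6. The log2 fold change was 0.16 (95% interval −0.26 to 0.58, edgeR adjusted p = 0.503), and −0.07 without WT sample 2.

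The DM genes encode the exchange factor that loads peptide. *H2-DMa* (ENSMUSG00000037649, chromosome 17, 34119541 to 34139101, plus strand), its alpha chain, was at 144, 144 and 174 normalized counts in WT and 127, 141 and 167 in *Mmp13*-/-. The genotypes overlapped, with a log2 fold change of −0.10 (95% interval −0.52 to 0.33, edgeR adjusted p = 0.694). Its exons share 360 bases with *Brd2* on the opposite strand, and whether the counting used strand is not given in the sources used here.

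Mice carry a pair of DM beta chain genes side by side. *H2-DMb1* (ENSMUSG00000079547, chromosome 17, 34153072 to 34160230, plus strand) was at 222, 191 and 210 normalized counts in WT and 234, 282 and 210 in *Mmp13*-/-, with overlap between genotypes and a log2 fold change of 0.23 (95% interval −0.16 to 0.61, edgeR adjusted p = 0.298). *H2-DMb2* (ENSMUSG00000037548, chromosome 17, 34143307 to 34151555, plus strand) was at 29.8, 33.1 and 31.2 in WT and 55.5, 49.7 and 82.9 in *Mmp13*-/-. All 3 *Mmp13*-/- samples exceeded all 3 WT samples, and sample 6, the one with the most receptor counts, was the highest. The WT mean was 31.4 ± 1.66 and the *Mmp13*-/- mean 62.7 ± 17.8 (SD, n = 3 each), a log2 fold change of 0.97 (95% interval 0.27 to 1.68, edgeR adjusted p = 0.0254).

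The *H2-DMb2* call was not robust to single samples. It was lost without WT sample 2, 4 or 5 (edgeR adjusted p = 0.0793, 0.0686 and 0.0797) and without *Mmp13*-/- sample 1 or 6 (0.0522 and 0.0510), with the log2 fold change between 0.74 and 1.06. The longest coding transcripts of the beta chain genes, 1404 and 1483 bases, were identical at 94.3% of their aligned bases, with 69 mismatches. A further 265 gap positions were not counted in that share. Estimated counts may have been divided between the copies, so the separate values of these genes are uncertain. With the counts of both added, the log2 fold change was 0.35 (standard error 0.15) and did not pass the test (edgeR adjusted p = 0.0729), an alternative chosen after seeing the data.

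*Cd74* (ENSMUSG00000024610, chromosome 18, 60803848 to 60812652, plus strand), the invariant chain and the most abundant member, was at 2002, 2607 and 2907 normalized counts in WT and 2221, 2472 and 2596 in *Mmp13*-/-. The *Mmp13*-/- samples all lay within the WT range. The log2 fold change was −0.04 (95% interval −0.42 to 0.33, edgeR adjusted p = 0.843).

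*Ciita* (ENSMUSG00000022504, chromosome 16, 10480059 to 10528418, plus strand), the coactivator of the other 7, was at 270, 430 and 400 normalized counts in WT and 268, 312 and 268 in *Mmp13*-/-. WT sample 2 fell among the *Mmp13*-/- samples, and the other 2 WT samples were above all of them. The WT mean was 366 ± 85.1 and the *Mmp13*-/- mean 283 ± 25.2 (SD, n = 3 each), with a log2 fold change of −0.37 (95% interval −0.80 to 0.06, edgeR adjusted p = 0.136). Without WT sample 2 it was −0.62 and was called lower (edgeR adjusted p = 0.0167). Its exons share 329 bases with *Dexi* on the opposite strand.

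Ratios between members within a sample do not depend on how libraries were scaled, and were used to ask whether the members changed unequally. For each *H2-Ab1* count, the WT samples had 0.569, 0.335 and 0.404 counts of *H2-Aa*, and the *Mmp13*-/- samples 1.20, 1.17 and 1.46. In counts not scaled by length, *H2-Ab1* was ahead in every WT sample and *H2-Aa* in every *Mmp13*-/- sample. The mean log2 ratio went from −1.23 ± 0.39 to 0.35 ± 0.18 (SD, n = 3 each), a difference of 1.58 (two-sided exact permutation p = 0.1, the smallest that 3 against 3 samples can give, 0.133 after adjustment over 4 ratios). With each sample left out in turn the difference was 1.41 to 1.79.

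The other ratios set each group against the A and E chain genes (the mean log2 count of *H2-Aa*, *H2-Ab1* and *H2-Eb1*). *Cd74* went from a log2 ratio of 1.41 ± 0.14 in WT to 0.96 ± 0.22 (SD, n = 3 each), a difference of −0.45, and *Ciita* from −1.38 ± 0.29 to −2.14 ± 0.07, a difference of −0.77. Neither overlapped between genotypes, and both had the smallest exact permutation p of 0.1 (0.133 adjusted). The denominator includes *H2-Aa*, the only one of its genes that was called. In the fit the log2 fold change was 1.31 for *H2-Aa*, −0.28 for *H2-Ab1*, 0.16 for *H2-Eb1* and −0.04 for *Cd74* itself. Ratios of *Cd74* and *Ciita* to single chains were not taken. For the DM genes the values were −3.21 ± 0.29 and −3.28 ± 0.27, with overlap (exact permutation p = 0.8). A further pair of ratios was added after seeing the data. *H2-DMb2* to *H2-DMb1* was 0.137, 0.176 and 0.150 in WT and 0.239, 0.177 and 0.397 in *Mmp13*-/-, a log2 difference of 0.74, although the highest WT and lowest *Mmp13*-/- values were almost equal, and *H2-Eb1* to *H2-Ab1* differed by 0.43 on the log2 scale without overlap. These ratios were not corrected for GC content, in which the members differ. With the GC correction described further on, the log2 fold changes were 0.57 for *H2-Eb1* and 0.58 for *H2-Ab1*, nearly equal, and 0.77 for *Cd74*, between those and the 1.65 of *H2-Aa*, whereas *Ciita* at 0.32 remained below all 3 chains.

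**Figure D2:**
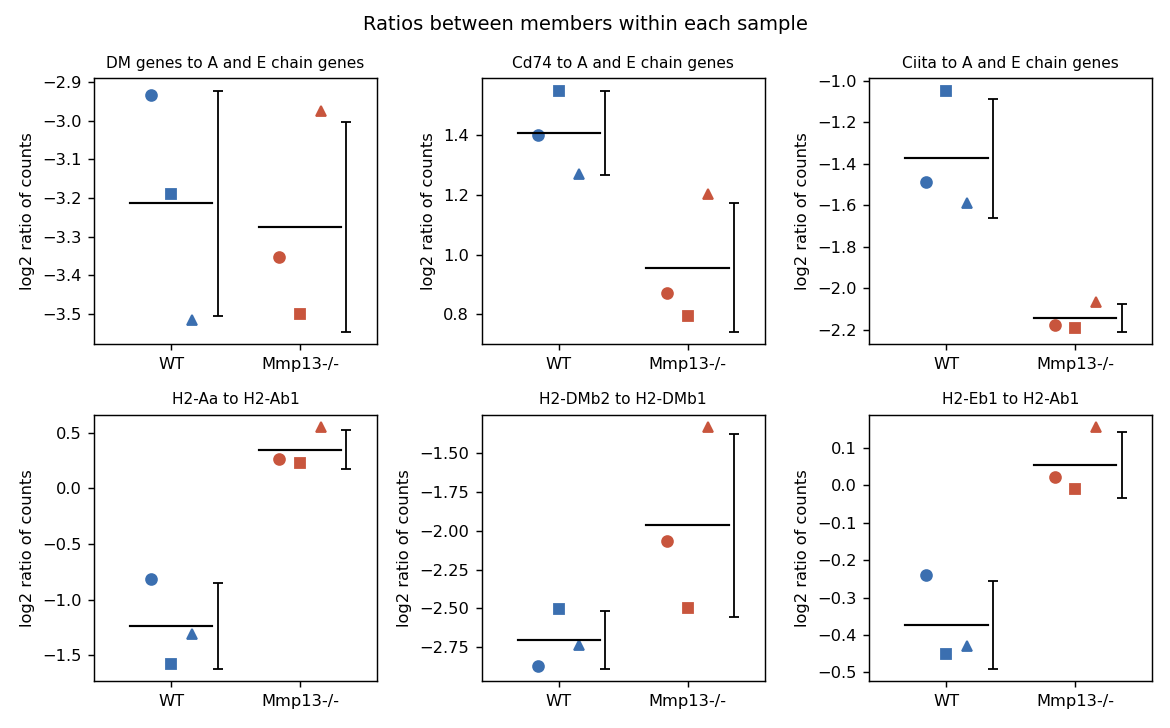
Log2 ratios of estimated counts (y axes, not starting at 0) between class II members or groups of members within each sample, for WT samples 2, 4 and 5 (blue circle, square, triangle) and *Mmp13*-/- samples 1, 2 and 6 (red circle, square, triangle), with the mean as a line and the SD (n = 3) as a bar. The ratio of *H2-Aa* to *H2-Ab1* moved from a mean of −1.23 to 0.35, whereas the ratio of the DM genes overlapped.

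Levels between genes were compared as normalized counts per kilobase of merged exons. In WT the order was *Cd74* (1492 ± 275, SD, n = 3), *H2-Eb1* (548 ± 133), *H2-Ab1* (543 ± 162), *H2-Aa* (154 ± 34.0), *H2-DMb1* (123 ± 9.37), *H2-DMa* (44.7 ± 4.99), *Ciita* (38.4 ± 8.92) and *H2-DMb2* (18.0 ± 0.95). Within their SDs, *H2-Eb1* did not differ from *H2-Ab1*, *H2-Aa* from *H2-DMb1*, nor *H2-DMa* from *Ciita*. In *Mmp13*-/- the order was *Cd74* (1447 ± 114, SD, n = 3), *H2-Eb1* (611 ± 73.6), *H2-Ab1* (448 ± 77.7), *H2-Aa* (382 ± 31.4), *H2-DMb1* (144 ± 21.8), *H2-DMa* (42.1 ± 5.86), *H2-DMb2* (35.9 ± 10.2) and *Ciita* (29.7 ± 2.65). *H2-Aa* had reached the range of *H2-Ab1*, and *H2-DMb2* overlapped both of its neighbours in that order. The merged exons of *H2-Aa* span 3.80 kilobases, which include a retained intron, against 2.57 for *H2-Ab1*, and its level per length is the lower for it.

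A pair of library properties moved with the genotype and bears on these values. The first was base composition. The 4 members with the lowest GC content of their longest coding transcript, *H2-Aa* (51.0%), *H2-Eb1* (51.8%), *H2-DMb2* (52.9%) and *H2-DMb1* (53.8%), were those with a positive log2 fold change, and the 4 with the highest, *H2-DMa* (55.1%), *Ciita* (55.2%), *Cd74* (56.6%) and *H2-Ab1* (57.3%), were those with a negative one. When each sample was corrected for GC content, 6 of 8 members were called, all higher, against 36.4% of all genes tested in either direction and 23.3% higher, with a median log2 fold change of 0.68. *H2-Aa* was then at 1.65 and *H2-Ab1* at 0.58 (edgeR adjusted p = 0.000366 and 0.0454), *H2-Eb1* at 0.57 (0.0247), *H2-DMb1* at 0.80 (0.00612), *H2-DMb2* at 1.50 (0.0126) and *Cd74* at 0.77 (0.00555). *H2-DMa* (0.60, edgeR adjusted p = 0.0502) and *Ciita* (0.32, 0.159) were not called. *H2-Aa* and *H2-DMb2* were thus called with and without the correction, and *H2-Aa* exceeded the other A and E chain genes in both fits. The direction of *H2-Ab1*, *H2-DMa*, *Cd74* and *Ciita* depended on the correction (that of *H2-DMa* and *Cd74* on the scaling factors as well). The size of the *H2-Aa* lead depended on the transcript used. With GC content of the longest transcript of any kind, *H2-Aa* was at 1.28, still called, and *H2-Ab1* and *H2-Eb1* were at 0.61.

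The second was background reads. At the receptor genes' rate per kilobase, background would make up 0.0054% to 0.635% of a member's counts in WT samples. In *Mmp13*-/- sample 6 it would be 26.7% of the *Ciita* counts, 15.9% of the *H2-DMb2* counts and 15.5% of the *H2-DMa* counts, but 2.04% of the *H2-Aa* counts. With that background subtracted, *H2-Aa* (1.47, edgeR adjusted p = 0.00016) and *H2-DMb2* (1.03, edgeR adjusted p = 0.0199) were still the only members called, against 49.1% of genes in either direction and 25.1% higher. With the GC correction added, 6 of 8 were called higher, against 33.6% and 18.7%.

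**Figure D3:**
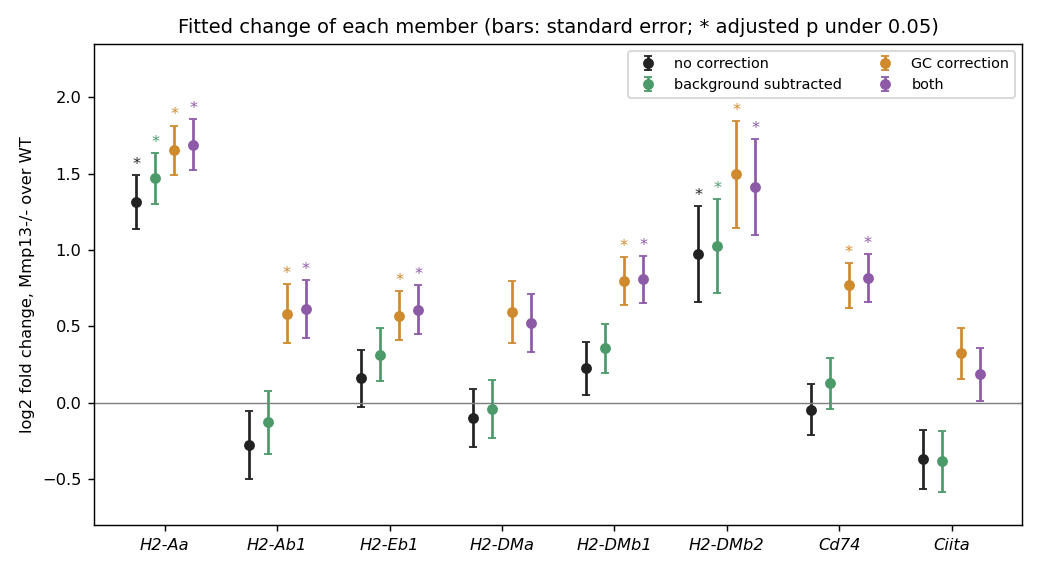
Log2 fold change (y axis, *Mmp13*-/- over WT) of each class II member with its standard error (bars), from edgeR without correction (black), with background subtracted (green), with the GC correction (orange) and with both (purple); an asterisk marks an adjusted p under 0.05. *H2-Aa* and *H2-DMb2* carry an asterisk in all 4 fits, and *H2-Ab1*, *H2-Eb1*, *H2-DMb1* and *Cd74* only in the fits with the GC correction.

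Related genes were taken from 8 lists with 58 entries, of which 57 were in the table and 54 were tested. Of these, 15 were higher, 5 lower and 34 not called (background 27.3% and 24.3%). Among the other class II molecules, *H2-Ob*, the beta chain of the DO molecule that restrains DM, was at 12.2, 28.3 and 55.1 normalized counts in WT and 88.9, 92.6 and 112 in *Mmp13*-/-, without overlap, and its log2 fold change was 1.61 (edgeR adjusted p = 0.0126). Its alpha chain *H2-Oa* was not called (1.84, adjusted p = 0.12). *H2-Eb2* was called higher at low counts, 1.87, 0 and 3.96 in WT and 16, 15.3 and 38.7 in *Mmp13*-/- (edgeR adjusted p = 0.00707), and those values include the background of sample 6. With both corrections, none of these 3 was called.

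Genes of antigen and invariant chain processing were divided, with 3 of 9 higher, none lower and a median log2 fold change of 0.16. *Ctss*, cathepsin S, which makes the late cuts in the invariant chain of antigen-presenting cells, was at 148, 129 and 183 normalized counts in WT and 596, 644 and 487 in *Mmp13*-/-. The genotypes were far apart, with a log2 fold change of 1.91 (edgeR adjusted p = 8.92e-05). *Ctsh*, another lysosomal cathepsin, rose by 1.27 (edgeR adjusted p = 0.000191) and *Sppl2a*, the protease that clears the last membrane stub of the invariant chain, by 0.79 (edgeR adjusted p = 0.00394) on the log2 scale. With the GC correction 4 of 9 were higher, against 23.3% of all genes tested. *Ctsz* and *Lgmn* were among them (0.47 and 0.66), and *Sppl2a* was not called (−0.10, edgeR adjusted p = 0.417). *Ctsl*, *Ctsb*, *Ctsd*, *Ctsz*, *Lgmn* and *Ifi30* were not called.

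Of the 3 genes of class II turnover, 2 were higher. *Marchf1* (*March1* in the table), the ubiquitin ligase that sends surface class II and CD86 to lysosomes, was at 30.9, 34.1 and 33.2 normalized counts in WT and 148, 159 and 181 in *Mmp13*-/- (log2 fold change 2.30, edgeR adjusted p = 8.65e-05). *Cd83*, which opposes that ligase, was at 34.1, 37.3 and 37.2 in WT and 122, 120 and 86.4 in *Mmp13*-/- (log2 fold change 1.60, edgeR adjusted p = 0.000728). Both were without overlap. Of the co-stimulatory genes 1 of 6 was higher, *Cd86*, which gives T cells their second signal, at 7.89, 17.4 and 12 in WT and 81.7, 83.7 and 102 in *Mmp13*-/- (log2 fold change 2.83, edgeR adjusted p = 0.000256).

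The complex on the class II promoters moved in both directions, with 1 of 7 genes higher, 2 lower and a median of −0.21. *Rfx5* and *Rfxank*, subunits of the RFX complex on the X box, fell by 0.46 and 0.57 on the log2 scale (edgeR adjusted p = 0.0184 and 0.00628), and *Creb1* rose by 1.29 (edgeR adjusted p = 0.000327). *Rfxap* and the NF-Y genes *Nfya*, *Nfyb* and *Nfyc* were not called. Neither RFX subunit was called with the GC correction (−0.25 and 0.11, edgeR adjusted p = 0.0686 and 0.532), while *Nfya* was then higher and *Nfyb* lower (0.49 and −0.66). *Creb1* was still called higher with it, but at 0.39 (edgeR adjusted p = 0.0116). Among 10 tested inputs to *Ciita*, *Irf4*, a factor of B cells and dendritic cells, rose by 1.92 (edgeR adjusted p = 0.000139). Of the chains of the interferon-gamma receptor, *Ifngr1* rose by 0.48 and *Ifngr2* fell by 0.57 (edgeR adjusted p = 0.0149 and 0.0115). *Irf1*, *Irf2*, *Irf8* and *Spi1* were not called. With the GC correction *Irf8* (1.04) and *Spi1* (1.48) were called higher and *Irf2* lower (−0.42). *Ifng* itself was too low to be tested, with no counts in WT and 0.879, 1.34 and 10.6 normalized counts in *Mmp13*-/-.

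The class I pathway, which presents peptides of the cell's own proteins to CD8+ T cells, served for comparison, with 4 of 14 genes higher, 2 lower and a median of 0.14. *Erap1*, which trims peptides, rose by 1.47 (edgeR adjusted p = 0.000124), and *Psmb8*, a subunit of the immunoproteasome, by 0.79 (edgeR adjusted p = 0.00511). *Tapbp* and *Tap2*, of the peptide loading and transport machinery, fell by 0.91 and 0.72 (edgeR adjusted p = 0.000596 and 0.00174), but with the GC correction stood at −0.06 and 0.10 and were not called (edgeR adjusted p = 0.654 and 0.448). In that fit 4 of 14 were higher, near the 23.3% of all genes tested, and none lower, with a median of 0.37, but the genes differed. *B2m* and *Canx* were called higher without the GC correction (0.62 and 0.66) and not with it (−0.06 and 0.09). *Psmb9* and *Psmb10* were called higher only with it (0.97 and 0.92). The class I heavy chains *H2-K1* and *H2-D1* were not called, nor were *Cd4* and *Lag3*, which bind class II from the T cell side, although *Cd4* was higher with the GC correction (0.91, edgeR adjusted p = 0.00612).

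**Figure D4:**
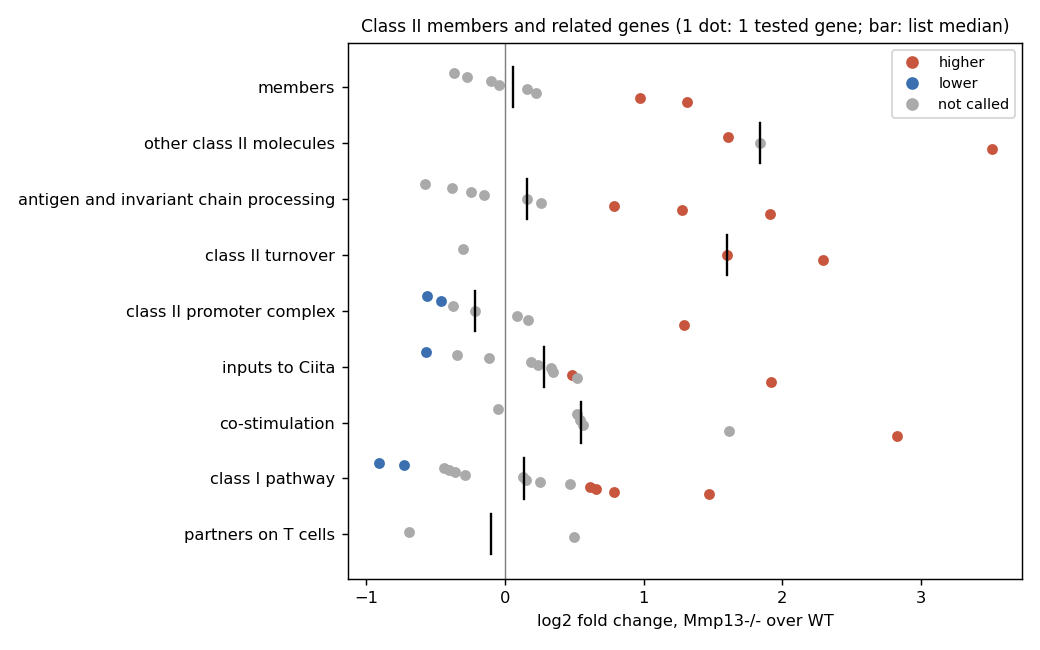
Log2 fold change (x axis, *Mmp13*-/- over WT) of the tested genes of each list (rows), with 1 dot per gene coloured by its call (red higher, blue lower, grey not called, edgeR adjusted p under 0.05) and a bar at the list's median. The median of the class II members is at 0.06, while class II turnover has a median of 1.60 from 3 genes.

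Markers of the cells that carry class II, and of other cells the pulp could hold, were read in the same fit. Of 77 markers, 43 were higher, 12 lower and 22 not called, against 27.3% higher and 24.3% lower of all genes tested. The share of all genes called higher was 23.3% with the GC correction, 25.1% with background subtraction and 18.7% with both. Dendritic cell markers had 4 of 11 higher and 1 lower, with a median of 1.20. *Cd209a*, of conventional dendritic cells, rose by 2.01 (edgeR adjusted p = 0.00803). *Siglech*, of plasmacytoid cells, was at 20.9, 27.0 and 44.9 in WT and 109, 103 and 86.4 in *Mmp13*-/- (log2 fold change 1.70, edgeR adjusted p = 0.00189), *Clec9a*, of cross-presenting cells, rose by 1.71 (edgeR adjusted p = 0.00256), and *Zbtb46*, which endothelium also expresses, fell by 0.45 (edgeR adjusted p = 0.0195) and was not called with the GC correction (−0.21, edgeR adjusted p = 0.198). Of the 6 not called, *Batf3* and *Itgax* had negative values (−0.85 and −0.15, edgeR adjusted p = 0.175 and 0.659). *Xcr1* (0.83, edgeR adjusted p = 0.278), *Clec10a*, *Ccr7* and *Cd207* had positive ones. Summed over the list, normalized counts were 711 to 868 in WT and 876 to 1074 in *Mmp13*-/-, without overlap but nearly touching. *Zbtb46*, which fell, contributed 398, 429 and 432 of the counts in the WT samples.

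Macrophage markers had 3 of 11 higher, which is near the share of all genes, and none lower, with a median of 0.37. *Mrc1* (log2 fold change 1.76), *Adgre1* (1.38) and *Cd163* (1.12) rose (edgeR adjusted p = 0.000128, 0.000443 and 0.00344), while *Csf1r* and *C1qa* to *C1qc* were not called. This count depended on the correction, with 9 of 11 higher after the GC correction (median 0.999), *Csf1r* and *C1qa* to *C1qc* among them, 7 of 11 after background subtraction (0.52) and 9 of 11 after both (1.03). Their sum was 5056 to 5358 in WT and 6800 to 8404 in *Mmp13*-/-. Mature B cell markers had 8 of 10 higher, with a median of 1.42 and sums of 380 to 630 in WT and 1397 to 1584 in *Mmp13*-/-. *Ms4a1*, the gene of CD20, was at 15.0, 10.3 and 12.9 in WT and 145, 137 and 120 in *Mmp13*-/- (log2 fold change 3.39, edgeR adjusted p = 4.84e-05).

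The marker lists of other blood cells moved as well. B cell precursor markers had 6 of 7 higher (median 2.79), monocytes 4 of 4 (3.13), neutrophils 8 of 8 (1.84) and T cells 6 of 7 (1.77). In none of these lists did the summed levels overlap, and 60.9% of single genes tested did not overlap in either direction. The B cell precursor gene not called was *Ebf1* (0.22, edgeR adjusted p = 0.281). *Ebf1* contributed 1055, 1001 and 933 of that list's sums of 1118, 1113 and 1046 in the WT samples. The T cell gene not called was *Trac*, at a log2 fold change of −0.15 (edgeR adjusted p = 0.831) and −0.07 with the GC correction. For T cells, 3 of 7 were higher with the GC correction, and 3 of 6 with background subtraction or both. *Rag2* and *Cd3d* were at 3 counts or fewer in every WT sample. The leukocyte marker *Ptprc*, the gene of CD45, was at 220, 255 and 309 in WT and 1867, 2230 and 1189 in *Mmp13*-/- (log2 fold change 2.75, edgeR adjusted p = 5.99e-05), whereas *Laptm5*, of the same list, was not called (0.04; 0.80 and called with the GC correction). Lower lists were skeletal muscle, with 5 of 5 lower (median −1.78), endothelium, with 2 of 4 (−0.18), and odontoblasts and pulp, with 4 of 7 lower and 2 higher (−0.97). With the GC correction, muscle remained at 5 of 5 lower (−1.07), while endothelium had 1 lower and 1 higher (0.074) and odontoblasts and pulp 1 lower and 2 higher (−0.054).

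Against these lists, the summed class II members were at 5002, 6342 and 7581 normalized counts in WT and 6558, 7546 and 6751 in *Mmp13*-/-, and overlapped. Of the WT mean of 6308, *Cd74*, *H2-Ab1* and *H2-Eb1*, not called without correction, held 2505, 1395 and 1064, and *H2-Aa* held 584. The sums of dendritic cell, macrophage and mature B cell markers did not overlap, although those of dendritic cells came close. Of single genes tested, 60.9% did not overlap in either direction. None of these sums was corrected for GC content. With that correction 6 of 8 members were called higher (median 0.68), against 23.3% of all genes tested. Of the markers, 5 of 11 of dendritic cells, 9 of 11 of macrophages and 9 of 10 of mature B cells were then higher (medians 1.397, 0.999 and 1.975). The part of the cell makeup in the values of *H2-Aa* and the other members was not tested.

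**Figure D5:**
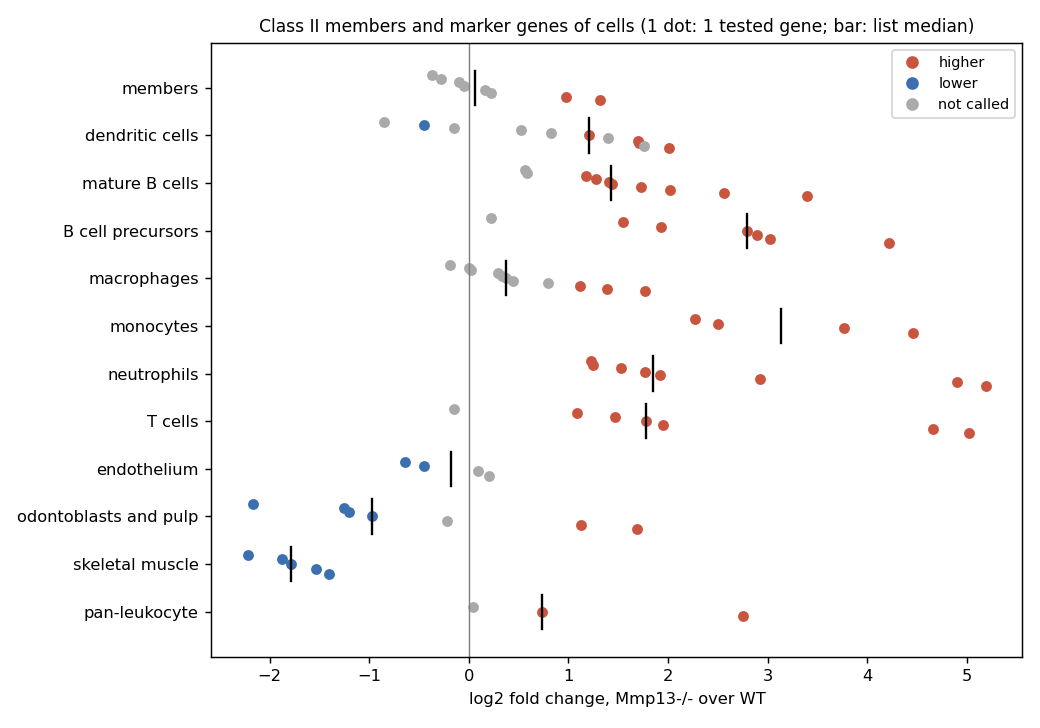
Log2 fold change (x axis, *Mmp13*-/- over WT) of the 8 class II members and of marker genes of cell types (rows), with 1 dot per tested gene coloured by its call (red higher, blue lower, grey not called, edgeR adjusted p under 0.05) and a bar at the list's median. The members have a median of 0.06, mature B cell markers 1.42, monocyte markers 3.13 and skeletal muscle markers −1.78.

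The genes whose pattern over the 6 samples was most like the mean centred log2 profile of *H2-Aa*, *H2-Ab1*, *H2-Eb1* and *Cd74* were sought among 13960 genes with at least 100 normalized counts on average. The 5 nearest were *C1qb* (root-mean-square distance 0.0813 on the log2 scale, Pearson's r 0.96), *Exosc8* (0.0869, r 0.95), *Pde3b* (0.0888, r 0.98), *Irf8* (0.0963, r 0.93) and *C87436* (0.1, r 0.95). The profile was lowest in WT sample 2 (−0.46) and highest in *Mmp13*-/- sample 2 (0.30). It averages genes that changed unequally, with log2 fold changes of 1.31 for *H2-Aa*, −0.28 for *H2-Ab1*, 0.16 for *H2-Eb1* and −0.04 for *Cd74*. Likeness to the average is thus not likeness to each of these genes. None of the 5 was called between genotypes without correction (*C1qb* and *Irf8* were higher with the GC correction, at 1.15 and 1.04), and the 6 points share their libraries.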

How the data were processed

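RNA-seq of dental pulp from 3 WT and 3 *Mmp13*-/- samples was read from a single table. The authors deposited estimated counts per gene from Strand NGS, without normalization, with fractions where reads were shared. Deposited log2 values, made by the authors with DESeq-type scaling and centred on each gene's median, entered only an alternative. The submitters' processing notes name mm10 and DESeq, and the aligner's settings and annotation release are not given in the sources used here.

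Estimated counts were rounded and tested with edgeR 4.0.16 in R 4.3.3 (glmQLFit and glmQLFTest, TMM factors, filterByExpr by genotype, genotype as the sole term), which left 24534 genes. All 8 members passed the filter. Normalized counts are counts over the TMM-scaled library, on the scale of the mean library. Lengths, GC content and positions came from GENCODE M21, which matched 99.8% of identifiers. GC content was corrected with a loess offset per sample (span 0.4) and background with the receptor genes' rate per kilobase. Alternatives used limma 3.58.1, DESeq2 1.42.0, other factors and filters, and each sample left out. Within-sample ratios were taken on log2(count + 0.5) and tested by exact permutation. Scripts were tested on simulated data. A gene with 3 counts has at most 0.139 CPM (count per library total, scaled), a floor for counting error only.

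The members, related genes and markers were chosen with earlier results of these data known. Named genes were the members, up to 4 called genes per list, those with the largest changes in each direction, plus defining markers, *Mmp13*, and the 5 genes nearest the class II profile. Other genes of the lists, among them those whose call moved with the GC correction, were named after their values were seen.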

Additional observations from a re-analysis of the deposited data

How the results depend on the processing

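*H2-Aa* was called higher in all 17 alternatives run for it. No paired analysis was possible because the genotypes share only the replicate number 2. Calls at any fold numbered 12665, against 19292 without the filter on low counts, 7669 with background subtraction and GC correction together, and 10915 to 12864 with a sample left out. Over 2-fold there were 7381, against 14325 without the filter, 4666 with at least 10 counts in every sample, 4690 with the GC correction, 3463 with both corrections, 4755 with GC content of the longest transcript of any kind, and 7145 to 8751 with a sample left out. Called members numbered 2, against 1 without the filter (*H2-DMb2* lost, 0.86, edgeR adjusted p = 0.0678), 6 with the GC correction, 6 with both, 7 with the longest transcript, and 1 to 3 with a sample left out. The share of higher genes among those called was 53.0%, and 63.9% with upper-quartile factors, 69.2% with totals alone, 64.1% with the GC correction, 64.9% with the longest transcript and 65.9% without the filter. The median of all genes moved by 0.21 with upper-quartile factors, 0.11 with totals, 0.12 with the longest transcript and 1.20 without the filter.

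Changes of sign, in log2 fold change, were as follows. *H2-Ab1* became 0.58 with the GC correction and 0.61 both with the longest transcript and with both corrections. *H2-Eb1* became −0.073 without WT sample 2 and ranged to 0.28 without WT sample 5. *H2-DMa* became 0.12 with upper-quartile factors, 0.027 with 10 counts in every sample, 0.60 with the GC correction, 0.52 with both corrections and 0.62 with the longest transcript. *Cd74* became 0.18 with upper-quartile factors, 0.053 with totals, 0.080 with 10 counts, 0.13 with background subtracted, 0.77 with the GC correction, 0.82 with both and 0.80 with the longest transcript. *Ciita* became 0.32 with the GC correction, 0.19 with both and 0.35 with the longest transcript. *H2-DMb1* was called higher with upper-quartile factors (0.43, edgeR adjusted p = 0.0406). The cause of these shifts was not tested. Within-sample ratios were run again only with background subtracted and with a sample left out. The ratio of the DM genes to the A and E chain genes, −0.061, became 0.078 without WT sample 2 and 0.051 without *Mmp13*-/- sample 2, and the other 3 kept their sign. Total counts of called related genes (17 to 23 with a sample left out, against 20) and markers (48 to 53, against 55) stayed within 1.5 times. The extremes for related genes were 14 with library totals and 30 with upper-quartile factors. Single lists moved with the GC correction, such as macrophages from 3 to 9 higher, T cells from 6 to 3 higher and odontoblasts and pulp from 4 to 1 lower. Depth limited *H2-DMb2* most, at 31.5 to 64.6 counts per library. Both corrections together, the longest transcript and the summed DM beta genes were chosen after seeing the data.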
